A study of Mus musculus with 6 samples.

Results

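Transcription factors that mark the dermal mesenchyme, or pattern it in the embryo, were examined in neonatal mouse dermal fibroblasts with stabilized β-catenin. The 10 genes were chosen by name and are the basic helix-loop-helix factors Twist1 and Twist2, the paired-related homeobox factors Prrx1 and Prrx2, the homeobox factors Msx1, Msx2 and En1, the T-box factors Tbx15 and Tbx18, and the forkhead factor Foxd1. All 10 are listed among the 41126 genes of the deposited table, and 9 of them were among the 15462 genes with enough fragments to test. Foxd1 was the exception.

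RNA-seq compared 3 control with 3 gain of function (GOF) cultures, to find the genes that change when β-catenin is stabilized. Cells came from the whole ventral skin of CD1, C57Bl6 mice at postnatal day 4 and were grown separately for each animal. Control cultures are labelled AdGFP; +/+, meaning that they received an adenovirus carrying GFP. GOF cultures are labelled AdCre; Ctnnb1 Δex3/+, where the adenovirus carries Cre, which removes exon 3 from 1 allele of Ctnnb1 and leaves a β-catenin that escapes degradation. The virus therefore differs between the groups together with β-catenin. The labels call the controls wild type, although the methods describe the same transgene in cells given either virus. The treatment label names AdCre at an MOI of 366 to 500 for 6 h for every culture. The methods of the paper give an MOI of 366 for the GFP virus and 366 to 500 for the Cre virus. The dose may therefore differ between the groups as well. The 6 h is the exposure to virus, and RNA was taken later. Only 4 animals stand behind the 6 cultures. Animal A supplied Control 0 and GOF 2, animal B supplied Control 2 and GOF 0, and Control 1 and GOF 1 had an animal each. Each culture is a whole dish of primary cells after passage, so a lower value can mean fewer cells of a type or less RNA per cell, which cannot be told apart here.

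These factors are known from the embryo. Twist and Prrx genes are broadly active in mesenchyme, including the cells that become dermis. En1 labels the ventral limb ectoderm and a dermal lineage on the trunk, Tbx15 takes part in patterning the skin along the back and belly, and Tbx18 is active early in the dermal condensates of hair follicles. Msx1 and Msx2 are classical responders to bone morphogenetic protein (BMP) signals. Canonical Wnt signaling acts when β-catenin enters the nucleus and joins TCF/LEF factors on DNA, and in the embryo it is required for dermal fate.

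The libraries held 35980818 to 42834460 fragments in the analysed genes. Axin2, a direct β-catenin target, was at 0.136 to 0.177 FPKM (fragments scaled by transcript length and library size) in control and 14.4 to 19.2 FPKM in GOF libraries, so that every GOF library was above every control. Ctnnb1 over its whole length had a log2 fold change of -0.05 (edgeR, adjusted p = 0.844). Over all tested genes 21.2% passed an adjusted p under 0.05, 11.1% with higher and 10.2% with lower values in GOF. On log2(FPKM + 1), GOF 2 was the farthest GOF library from the median of the 3 in 45.2% of 12018 genes. These genes had a mean of at least 1 FPKM. Fibroblast markers were abundant, with a summed level of 2992 to 3782 FPKM in control and 2465 to 2987 FPKM in GOF libraries over 8 genes, of which 2 rose and 2 fell. Keratinocyte markers summed to 0.388 to 0.562 FPKM and adipocyte markers to 0.0142 to 0.0946 FPKM over the 6 libraries.

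Of the 9 factors tested, 2 rose with stabilized β-catenin and none fell at an adjusted p under 0.05, a share of called genes close to the 21.2% of all tested genes. Twist1 and Msx2 both passed this threshold and a fold change over 2. At that stricter threshold 12.3% of all tested genes were called, 6.69% higher and 5.64% lower. The fitted log2 fold change was above 0 in all 9 factors, except that Msx1 was below 0 with library totals or upper-quartile normalization. The median over the factors was 0.46, where the median of all tested genes was -0.02. At an unadjusted p under 0.05, 5 factors were higher and 0 were lower. Twist2, the last of these 5, ranked 4912 of the 15462 tested genes by p. At least 4912 of the 15462 therefore pass this cut, counting both directions. Twist1, Prrx1, Prrx2 and Msx2 had FPKM values that did not overlap between the groups and were higher in GOF, which held for 20.3% of all tested genes. No factor was lower without overlap, against 19.2% of all tested genes, and 39.5% did not overlap in either direction. On counts scaled by TMM, the normalization between libraries used in the fit, Twist1, Prrx2 and Msx2 were higher without overlap, beside 20% of all tested genes, and none was lower, beside 20.6%.

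**Figure D1:**
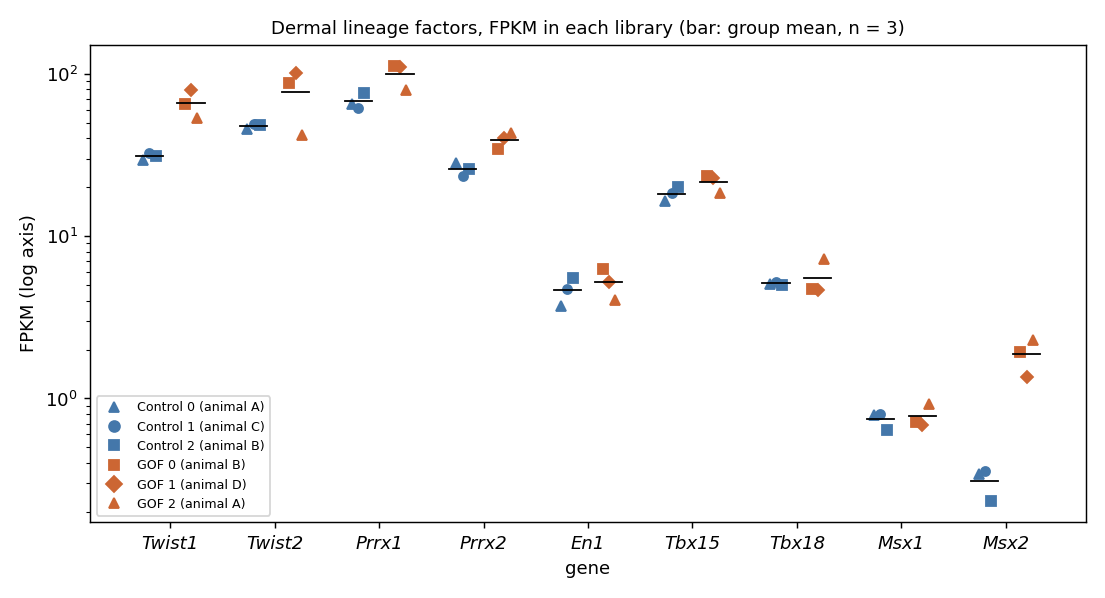
FPKM of the 9 tested factors in each of the 6 libraries on a log axis, with controls in blue and GOF in orange, the same marker shape for cultures of one animal, and a bar at the group mean (n = 3). Twist1 and Msx2 lie wholly above their controls, and GOF 2 is the lowest GOF value for Twist2 at 42.2 FPKM.

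Twist1 and Twist2 encode closely related basic helix-loop-helix proteins that bind E-box DNA as dimers and are used as markers of mesenchyme. Twist1 lies on chromosome 12 from 33957671 to 33959829 on the plus strand of GRCm38, and Twist2 on chromosome 1 from 91801461 to 91848028, also on the plus strand. The 250 bases before their start in RefSeq on GRCm38.p6 are shown because they are the windows searched for the TCF/LEF letters described later, with the CCAAT letters in capitals.
Twist1 (chr12:33957421-33957670, plus strand): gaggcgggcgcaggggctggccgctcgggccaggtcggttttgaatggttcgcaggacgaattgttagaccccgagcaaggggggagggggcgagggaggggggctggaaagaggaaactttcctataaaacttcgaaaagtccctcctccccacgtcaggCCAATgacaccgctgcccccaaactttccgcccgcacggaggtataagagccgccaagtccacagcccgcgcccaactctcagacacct
Twist2 (chr1:91801211-91801460, plus strand): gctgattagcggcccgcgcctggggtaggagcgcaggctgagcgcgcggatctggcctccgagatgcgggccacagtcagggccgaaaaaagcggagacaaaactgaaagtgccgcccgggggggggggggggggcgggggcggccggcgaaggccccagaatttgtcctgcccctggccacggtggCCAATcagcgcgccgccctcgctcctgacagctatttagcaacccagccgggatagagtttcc
The Twist1 window overlaps no annotated exon. The Twist2 window lies within an exon of the antisense gene Gm29100.

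Twist1 measured 29.5, 32.5 and 31.2 FPKM in Control 0, 1 and 2 and 65.2, 79.4 and 53.5 FPKM in GOF 0, 1 and 2. All 3 GOF libraries were above all 3 controls, and GOF 2 was the lowest of them. The fitted log2 fold change was 1.04 (standard error 0.14, edgeR, adjusted p = 0.00252), a fold of 2.05 with a 95% interval of 1.64 to 2.57. It rose within both animals that gave a culture to each group, by 0.86 in animal A and 1.06 in animal B as log2 ratios of FPKM. The call held in all 17 alternatives, although the fold was under 2 without GOF 1 (log2 fold change 0.92), with an animal block (0.96), and when scaled by library totals (0.996) or upper quartiles (0.985).

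Twist2 measured 45.6, 48.9 and 48.0 FPKM in the controls and 88.1, 101 and 42.2 FPKM in GOF 0, 1 and 2. The coefficient of variation was 3.59% in the controls and 40.1% in the GOF libraries, which split, with 2 above every control and GOF 2 below every control. Its log2 fold change of 0.64 (standard error 0.25, edgeR, adjusted p = 0.116) had a 95% fold interval of 1.04 to 2.35 and did not pass. The log2 ratio was -0.11 in animal A and 0.88 in animal B. Without GOF 2 it was 0.91 (edgeR, adjusted p = 0.00376), and without both cultures of animal A 0.90 (adjusted p = 0.00164). Of the 8 fibroblast markers, 5 were also lowest in GOF 2 among the GOF libraries (Pdgfra, Dcn, Lum, Thy1 and Fap), Col1a1 and Col1a2 lay between the other two libraries, and Vim was highest in GOF 2. Lum was at 11.3 FPKM in GOF 2 and at 62.4 and 134 FPKM in GOF 0 and 1, while Vim was at 1506 FPKM in GOF 2 and at 1307 and 1204 FPKM in the others. Their part in the Twist2 value was not tested.

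The controls kept Twist1 below Twist2 in a narrow range, with a Twist1 to Twist2 ratio of FPKM of 0.647, 0.664 and 0.650. In GOF 0 and 1 the ratio was 0.740 and 0.786, and in GOF 2 it was 1.27. The groups did not overlap, and the log2 ratio was higher in GOF by 0.47, a 1.38-fold shift of the balance, and by 0.22 without GOF 2. An exact permutation test over libraries gave a two-sided p of 0.1, the smallest that 3 against 3 allow, and 0.2 after adjustment over the 4 pairs of relatives compared. GOF 2 had the least Twist2 and also the only ratio above 1. The fragment estimates of both genes were whole numbers in every library. The antisense gene Gm29100 overlaps Twist2 and had 46, 59 and 87 fragments in the controls and 103, 112 and 76 in GOF 0, 1 and 2, while Twist2 had 1710 to 3696 over the 6 libraries. The sense-intronic Gm29101 within Twist2 had 19 to 118 fragments. Neither passed the test (log2 fold changes 0.57 and 0.84, edgeR, adjusted p = 0.212 and 0.254). Whether the counting used the strand is not given in the sources used here.

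Prrx1 and Prrx2 are homeobox factors of limb, craniofacial and dermal mesenchyme. Prrx1, on the minus strand of chromosome 1 from 163245119 to 163313710, had the highest mean level of the 10 in both groups. It measured 65.2, 61.8 and 76.2 FPKM in Control 0, 1 and 2 and 111, 110 and 79.4 FPKM in GOF 0, 1 and 2. GOF 2 was again the lowest GOF library and lay just above the highest control. On TMM-scaled counts it lay below that control, at 367 against 386 CPM, so the absence of overlap holds for FPKM only. The log2 fold change was 0.46 (standard error 0.18, edgeR, adjusted p = 0.109), and without GOF 2 it was 0.62 (adjusted p = 0.0265). Within animals the log2 ratio of FPKM was 0.28 in A and 0.54 in B. The antisense Gm20471 and the lincRNA Gm26523 lie within Prrx1 and had at most 42 and 87 fragments, beside 11660 or more for Prrx1. Gm37644, which also overlaps it, has no value in the table.

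Prrx2, on the plus strand of chromosome 2 from 30834972 to 30881251, went the other way across the GOF libraries. It measured 28.1, 23.4 and 25.9 FPKM in the controls and 34.5, 40.0 and 43.3 FPKM in GOF 0, 1 and 2, with the highest value in the library where Twist1, Twist2 and Prrx1 were lowest. The groups did not overlap on FPKM or on TMM-scaled counts. Its log2 fold change of 0.51 (standard error 0.16) stood just outside the threshold (edgeR, adjusted p = 0.0581), with a 95% fold interval of 1.10 to 1.83. It passed in 7 of 17 alternatives, with adjusted p-values from 0.0134 to 0.188 over all of them. Leaving out Control 0 was one of the 7, at 0.59 (adjusted p = 0.0398). The Prrx1 to Prrx2 ratio was 2.32, 2.64 and 2.95 in the controls and 3.22, 2.74 and 1.83 in GOF 0, 1 and 2. These ranges overlap, and the log2 ratio differed by -0.05 (exact permutation test, two-sided p = 0.9).

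**Figure D2:**
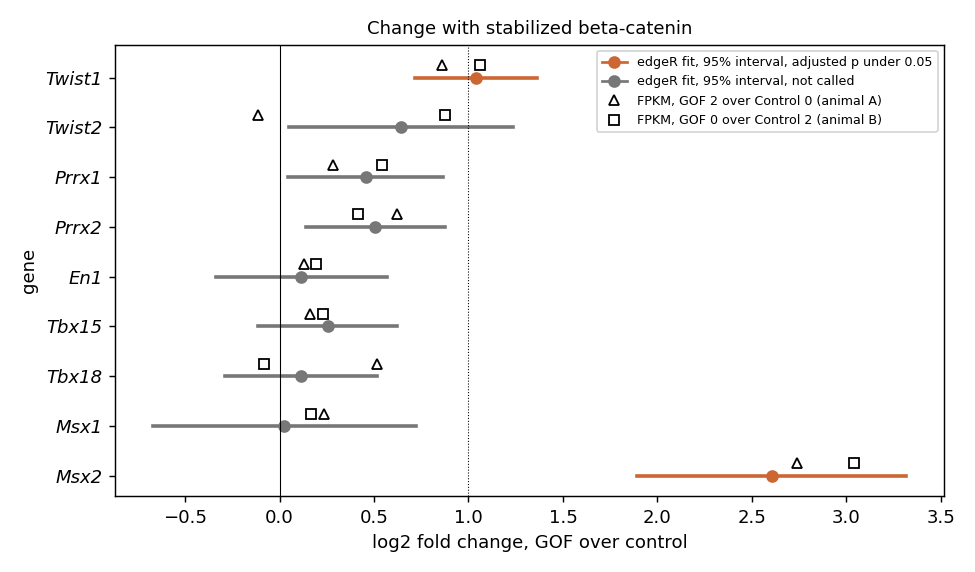
Log2 fold change of GOF over control for the 9 tested factors, with circles and lines for the edgeR estimate and its 95% interval and open symbols for the log2 ratio of FPKM within animal A (triangles) and animal B (squares). The intervals of Twist1 and Msx2 are the only ones in orange, for an adjusted p under 0.05, and the 2 animals differ most for Twist2, at -0.11 and 0.88.

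Msx1 and Msx2 encode homeobox repressors with much the same DNA preference that act downstream of BMPs in skin, teeth and skull. Msx2 had the largest fitted change of the 9 factors tested, from a low level. It lies on the minus strand of chromosome 13 from 53466884 to 53473074. It measured 0.344, 0.357 and 0.235 FPKM in the controls (25, 29 and 20 fragments) and 1.94, 1.36 and 2.30 FPKM in GOF 0, 1 and 2 (165, 111 and 196 fragments). Every GOF library was above every control, with GOF 2 the highest. The log2 fold change was 2.61 (standard error 0.31, edgeR, adjusted p = 0.00155), a fold of 6.09 with a 95% interval of 3.72 to 9.96. In animal A it rose by 2.74 and in animal B by 3.04 on the log2 FPKM scale. The call held in all 17 alternatives.

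Msx1, on the minus strand of chromosome 5 from 37820485 to 37824583, was also low and gave 36 to 61 fragments per library. It measured 0.786, 0.807 and 0.641 FPKM in the controls and 0.719, 0.683 and 0.925 FPKM in the GOF libraries. The groups overlapped, and the log2 fold change was 0.03 (standard error 0.30, edgeR, adjusted p = 0.963). Its fold interval of 0.628 to 1.65 includes moderate changes in either direction. Its direction turned negative with library totals and in other alternatives. The Msx2 to Msx1 ratio was 0.438, 0.443 and 0.367 in the controls and 2.69, 2.0 and 2.48 in GOF 0, 1 and 2. Msx1 was therefore the more abundant of the 2 in each control and Msx2 in each GOF library. The ratio was higher in GOF by 2.52 on the log2 scale, 5.73-fold (exact permutation test, two-sided p = 0.1, adjusted p = 0.2).

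**Figure D3:**
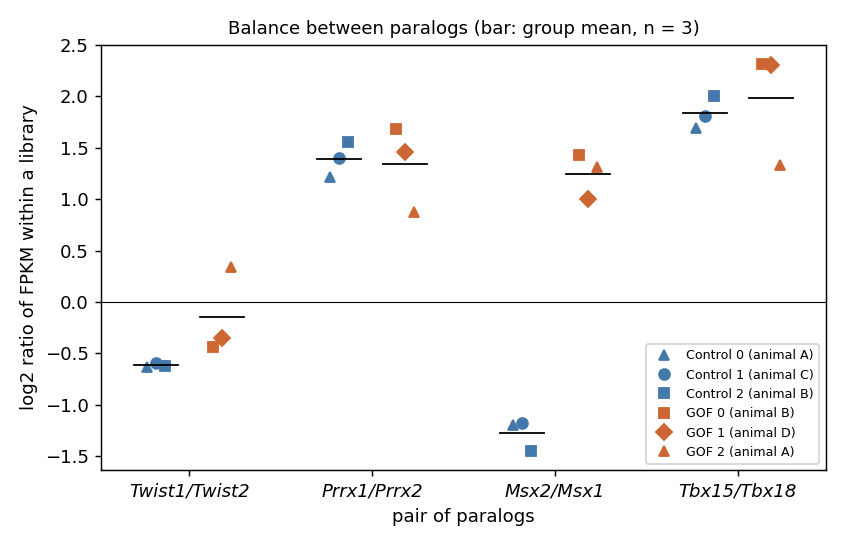
Log2 ratio of FPKM within each library for 4 pairs of related factors, with controls in blue, GOF in orange, the marker shape of the animal and a bar at the group mean (n = 3). The Msx2/Msx1 ratio crosses 0 between the groups, the Twist1/Twist2 ratio crosses it in GOF 2 alone, and the other 2 pairs overlap.

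The T-box factors and En1 did not pass the test. Tbx15, which sets the boundary between dorsal and ventral coat colour in mice, lies on the plus strand of chromosome 3 from 99240381 to 99354259. It measured 16.4, 18.4 and 20.0 FPKM in the controls and 23.5, 22.9 and 18.3 FPKM in GOF 0, 1 and 2. GOF 0 and 1 were above every control, and GOF 2 lay among them. The log2 fold change was 0.26 (standard error 0.16, edgeR, adjusted p = 0.297), and without both cultures of animal A it was 0.32 (adjusted p = 0.0441).

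Tbx18, on the minus strand of chromosome 9 from 87702800 to 87731260, showed the opposite arrangement. It measured 5.09, 5.24 and 5.0 FPKM in the controls, 4.73 and 4.64 FPKM in GOF 0 and 1, and 7.27 FPKM in GOF 2. The GOF libraries therefore lay on both sides of a narrow control range. Its log2 fold change was 0.11 (standard error 0.17, edgeR, adjusted p = 0.687) and became -0.09 without GOF 2. The Tbx15 to Tbx18 ratio was 3.23, 3.51 and 4.01 in the controls, 4.97 and 4.93 in GOF 0 and 1, and 2.52 in GOF 2. The log2 ratio differed by 0.15 (exact permutation test, two-sided p = 0.8, adjusted p = 0.9). The overlapping genes Gm43120 at Tbx15 and D030062O11Rik at Tbx18 have no value in the table.

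En1, the homologue of Drosophila engrailed, lies on the plus strand of chromosome 1 from 120602418 to 120607992. It measured 3.70, 4.73 and 5.53 FPKM in the controls and 6.31, 5.20 and 4.04 FPKM in GOF 0, 1 and 2. The spread within each group was wider than the difference between them. The log2 fold change was 0.12 (standard error 0.19, edgeR, adjusted p = 0.713), with a fold interval of 0.792 to 1.48. In both groups the culture of animal A was the lowest and that of animal B the highest, and the log2 ratio within these animals was 0.13 and 0.19.

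Foxd1, a forkhead factor of kidney stroma and other embryonic mesenchyme on chromosome 13 from 98354242 to 98359305, was close to undetected. It had 2, 4 and 1 fragments in the controls and 0, 0 and 7 in GOF 0, 1 and 2. A count of 0 allows up to 3 fragments in a library, for counting error only, so no fold change is given.

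The order of the levels on the FPKM scale, which accounts for transcript length, was Prrx1, Twist2, Twist1, Prrx2, Tbx15, Tbx18, En1, Msx1, Msx2 and Foxd1 in the controls. Tbx18 and En1 were the only neighbours whose ranges overlapped there. In GOF libraries Prrx1, Twist2 and Twist1 overlapped in turn at the top, Tbx18 and En1 again overlapped, and Msx2 stood above Msx1. Prrx1 was at the 92.5 percentile of tested genes by mean FPKM in controls and Msx2 at the 11.2 percentile, which became 31.2 in GOF.

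The distance of each GOF library from the median of the 3 was taken on log2(FPKM + 1). GOF 2 was the farthest in 6 of the 8 factors with a mean of at least 1 FPKM. These were Twist1, Twist2, Prrx1, En1, Tbx15 and Tbx18. For Twist1 it was nearly tied with GOF 1, and on FPKM GOF 1 (79.4) was farther from the median (65.2) than GOF 2 (53.5). In 45.2% of all 12018 genes at that level the farthest library was GOF 2. Its median absolute log2 deviation from the mean of the other 2, on log2(FPKM + 1), was 0.425 over the 8 factors and 0.197 over all those genes. GOF 0 (0.247 and 0.153) and GOF 1 (0.258 and 0.149) also deviated more over the factors than over all genes. The controls deviated less over the factors (0.0678 to 0.0966) than over all genes (0.124 to 0.252, the highest in Control 0). Twist1, Twist2, Prrx1, En1 and Tbx15 were lowest in GOF 2 of the 3 GOF libraries, whereas Prrx2, Tbx18, Msx1 and Msx2 were highest in it. On FPKM, Control 0, from the same animal, was likewise the lowest control for Twist1, Twist2, En1 and Tbx15 and the highest for Prrx2. The other factors did not match on that scale, with Prrx1 lowest and Tbx18, Msx1 and Msx2 highest in Control 1. On TMM-scaled counts Control 2 was the lowest control for Twist1 and Twist2, and Control 0 was the highest for Tbx18 and Msx2. Without GOF 2, 4 factors were called in place of 2, Twist2 and Prrx1 being added, while 18.7% of all genes tested in that fit were called. Without both cultures of animal A, 6 were called, with Prrx2 and Tbx15 as well, and the share of all genes called was also larger, at 30.6%.

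Promoter sequence was examined for the letters of TCF/LEF factors, which β-catenin joins on DNA. The RefSeq promoter table used here was matched for 9 of the 10 factors, and the window taken was the 250 bases before the start. The TCF/LEF letters CTTTGA or CTTTGT, on either strand, were in 0 of the 9 windows and in 27.6% of 32841 windows of the same length. That says only that these letters are not in these windows. The letters CCAAT, on either strand and searched for after the sequences had been seen, were in 7 of the 9 windows, Twist1, Twist2, En1, Tbx18, Msx1, Msx2 and Foxd1, and in 33.9% of all windows. The sites of the Msx genes are shown because Msx2 rose and Msx1 did not pass the test. Each is printed in the direction of its gene, with CCAAT or its reverse complement ATTGG in capitals.
Msx1 (chr5:37824659-37824688, minus strand): cacgagcacagcCCAATggttctctccgga
Msx1 (chr5:37824622-37824651, minus strand): cctcgcgctctgATTGGccgctgccacgct
Msx2 (chr13:53472887-53472916, minus strand): ctccagggagagCCAATcggtggcgagcgt
Both genes hold the letters, so the match does not separate the one that rose from the other. The Msx2 window lies within an annotated Msx2 exon. The Prrx2 window, from 30845117 to 30845366, lies within a Prrx2 exon inside the span given above, not before its annotated start. The Tbx18 window lies within an exon of D030062O11Rik. Those of Prrx1, En1 and Foxd1 hold 60, 69 and 3 exon bases of their own gene.

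Twist proteins work as dimers with E proteins (Tcf3, Tcf4, Tcf12), and Id proteins take E proteins out of such dimers. Of these 7 partner genes 0 rose and 2 fell, 28.6% called beside 21.2% of all tested genes. Id4 was at 26.7 to 29.4 FPKM in control and 11.5 to 12.9 FPKM in GOF cultures, with a log2 fold change of -1.19 (edgeR, adjusted p = 0.00101). Tcf3, which encodes the E proteins E12 and E47, was at 21.1 to 22.2 FPKM and then 9.41 to 13.2 FPKM, with a log2 fold change of -0.98 (edgeR, adjusted p = 0.0123). The other E protein genes went the other way and stood just outside the threshold. Tcf4 had a log2 fold change of 0.71 and Tcf12 of 0.63 (edgeR, adjusted p = 0.0684 and 0.0536). Tcf12 was at 30.2 to 39.5 FPKM in control and 46.8 to 66.2 FPKM in GOF cultures. Tcf4 was at 22.8 to 38.07 FPKM in control and 38.04 to 67.0 FPKM in GOF cultures. Its groups overlapped narrowly on FPKM, though not on TMM-scaled counts. Id1, Id2 and Id3 did not pass. Without GOF 0 only 1 partner gene was called lower, and 1 was called higher without Control 0 and 2 without GOF 2.

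Among 27 relatives of the factors by family, 14 could be tested, 3 rose and 0 fell, a share of 21.4% called that is close to the 21.2% of all tested genes. All 3 were low, and all had a fold over 2. Their fragments met the filter of the test only through the GOF libraries, where they are high. The count and direction of these calls are therefore not independent of that filter. Tbx20, a T-box factor of the heart, had 4, 2 and 1 fragments in the controls and 185, 108 and 129 in GOF 0, 1 and 2, with a log2 fold change of 5.78 (edgeR, adjusted p = 0.000441). Eomes, a T-box factor of early embryonic lineages, was at 0.0277 to 0.117 FPKM in control and 0.578 to 0.639 FPKM in GOF libraries (log2 fold change 3.07, edgeR, adjusted p = 0.00448). Alx1, a paired-type homeobox factor of craniofacial mesenchyme, had 3, 2 and 1 fragments in the controls and 13 to 20 in GOF libraries, at least 4.72-fold higher against a floor of 3 fragments per library (adjusted p = 0.00751).

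A list of 49 other mesenchymal factors showed changes in both directions, with 35 tested, 5 higher and 7 lower, a share of 34.3% beside the 21.2% of all genes. Ebf3 (log2 fold change -2.43) and Meox1 (-3.69), a somite homeobox gene, fell, and Irx3 (1.73), an Iroquois homeobox gene, rose (edgeR, adjusted p = 0.000825, 0.00181 and 0.00158). Of this list 3 were called lower without Control 2 and 4 without Control 1, and 3 were called higher without Control 1 or without GOF 1. Of 16 regulators of fat, cartilage, bone and muscle, 11 were tested, 2 were higher and 3 lower. That is a share of 45.5% beside the 21.2% of all tested genes. Those that fell were Cebpa (-2.67) and Pparg (-1.28), regulators of fat cell formation, and Sox9 (-2.30), which drives cartilage formation. The 2 that rose were Prdm16 (1.12), known for brown fat, and Runx2 (0.80), known for bone (edgeR, adjusted p = 0.0456 and 0.0417), and neither was called with the animal as a block or without Control 1, Control 2, GOF 0 or GOF 1, and only 1 without Control 0.

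BMP pathway genes were included because Msx genes respond to BMPs. Of 22 genes 21 were tested, 8 rose and 1 fell, a share of 42.9% beside the 21.2% of all tested genes. The median log2 fold change of the list was 0.27. Bmp2, a ligand, had the largest fitted rise of the list, from 3, 0 and 5 fragments in the controls to 51, 113 and 41 in GOF 0, 1 and 2 (log2 fold change 4.58, standard error 0.78, edgeR, adjusted p = 0.0065). Bmp2 too met the filter of the test only through the GOF libraries. Fst, a secreted antagonist of activins and BMPs, was at 36.5 to 42.2 FPKM in control and 142 to 247 FPKM in GOF libraries (log2 fold change 2.31, edgeR, adjusted p = 0.000347). Bambi, a pseudoreceptor, rose by 1.22 on the log2 scale (edgeR, adjusted p = 0.00462). Nog, Grem1, Smad7 and Acvr1 also rose, and like Bmp2 are named after their values were seen. The list mixes ligands, receptors and antagonists, so its count gives no direction of BMP signaling. The part of BMP signals in the Msx2 value was not tested. Bmpr1a, which encodes a type I receptor, was the only one that fell, by 0.58 on the log2 scale (adjusted p = 0.026), and the call was lost without Control 1, Control 2 or GOF 0. Bmp4 did not pass (0.53, edgeR, adjusted p = 0.439), and its value of 1.65 FPKM in GOF 2 was above the 0.571 to 0.881 FPKM of the other 5 libraries.

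**Figure D4:**
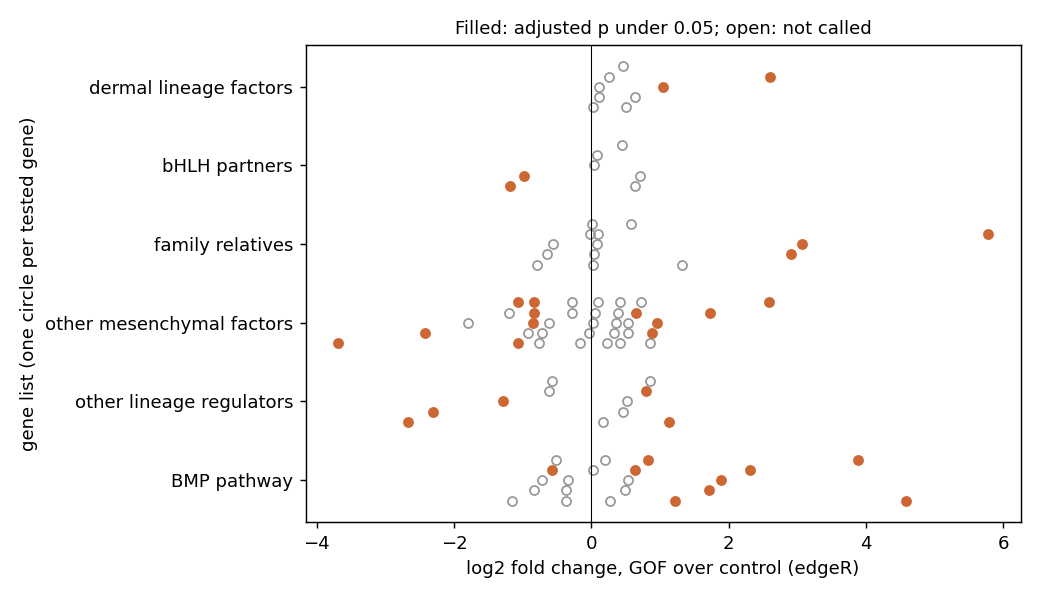
Log2 fold change of GOF over control from edgeR for each tested gene of 6 lists, 1 circle a gene, filled for an adjusted p under 0.05 and open otherwise, with vertical offsets only to separate the circles. All 9 dermal lineage factors lie right of 0 in this fit, Msx1 changing sides with library totals, while the other mesenchymal factors lie on both sides, with 5 higher and 7 lower.

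Markers of other cells in the dish moved between the groups in several lists. Skeletal muscle markers summed to 23.5 to 28.1 FPKM in control and 138 to 172 FPKM in GOF libraries, nearly all from Acta1, while Myod1, Myog and Ckm were at 0.131 FPKM or less everywhere. Melanocyte and Schwann cell markers summed to 7.31 to 9.58 FPKM in control and 1.74 to 4.62 FPKM in GOF libraries, with 1 of 4 tested lower. Endothelial markers were at 2.39 to 2.56 FPKM in control and 2.53 to 5.82 FPKM in GOF (1 of 4 higher, Kdr), and leukocyte markers at 2.40 to 3.33 FPKM and 4.33 to 7.54 FPKM (1 of 4 higher, Csf1r), with Cd3e at 0 in all 6. Pericyte markers were at 33.9 to 37.6 FPKM in control and 19.0 to 36.3 FPKM in GOF libraries, none of the 5 called. The part of these cells in the values of Twist1 and Msx2 was not tested.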

How the data were processed

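RNA-seq of 3 control and 3 GOF fibroblast cultures was analysed. The authors prepared stranded libraries, mapped paired reads with TopHat (mm10) and quantified genes with Cuffdiff. The deposited estimated counts are each gene's fragments from that run, not yet scaled. The FPKM values were deposited after the authors' Cuffdiff run scaled fragments by transcript length and library. Of the values 4.95% were not whole, and counts were rounded. A further 3 columns of per-library values, a separate table of lncRNAs and 32 genes with failed estimates were not used. Symbols came from GENCODE M21 (GRCm38), which held 97.9% of the identifiers.

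Counts were tested in R 4.3.3 with edgeR 4.0.16 (TMM, filterByExpr, quasi-likelihood test, Benjamini-Hochberg adjustment), in place of Cuffdiff, keeping the authors' thresholds (adjusted p under 0.05, fold over 2). DESeq2 1.42.0 and limma 3.58.1 were alternatives, and files were read with the data.table package (version 1.17.8). Ratios of relatives were tested by an exact permutation test. In simulated data for this comparison, with 15462 genes of which 200 had a log2 change of 2, the edgeR fit recovered 164 of them and called 8 of 15057 unchanged genes. With an animal block it recovered 151 and called 40 unchanged genes. The simulated libraries were independent, without the shared animals of the data. The planted change was also larger than the fitted change of every factor except Msx2. Samples were grouped by their titles. Same-numbered cultures did not deviate together (r = -0.432, 0.0554 and -0.412 across genes), whereas cultures of one animal, known from the labels, did (r = 0.374 and 0.499). A p-value from the fit without the animal treats the 6 cultures as independent. Depth was 35980818 to 42834460 fragments per library, and the floor of 3 fragments covers counting error only. The members and lists were chosen with earlier results of these data known. The text names all 10 members, Axin2, Ctnnb1, genes overlapping a member, and for each other list up to 3 called genes with the smallest adjusted p and any sole call in a direction. Exactly 1 of the genes that the rule selects is not reported here. Markers of other cells and the few further genes named were chosen beside that rule, after their values were seen.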

Additional observations from a re-analysis of the deposited data

How the results depend on the processing

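Over DESeq2, scaling by library totals or upper quartiles, tests without a filter or with at least 1 FPKM in 3 libraries, limma on log2(FPKM + 1) and log2(FPKM + 0.1), blocks by label number or animal, and each library left out, Twist1 (log2 fold change 0.92 to 1.13, largest adjusted p 0.0148) and Msx2 (1.12 to 2.88, largest adjusted p 0.0119) stayed called. The low of 1.12 for Msx2 came with limma on log2(FPKM + 1), where low values are compressed by construction. Its next lowest value was 2.24, with limma on log2(FPKM + 0.1). With each library left out, 2 to 4 factors were called and 1 to 2 with a fold over 2. The count with a fold over 2 was 1 with library totals, upper-quartile normalization and the replicate block by animal, since Twist1 then fell short of a fold of 2. Without both cultures of animal A, an alternative chosen after seeing the data, 6 were called, as were 30.6% of all genes.

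Msx1 turned to -0.020 with library totals, -0.028 with upper-quartile normalization, -0.10 without Control 2, -0.20 without GOF 2 and -0.13 without both cultures of animal A. With single libraries left out its highest value was 0.16, without GOF 1, and with the animal block it was 0.23. En1 turned to -0.0012 without Control 0 and -0.035 without GOF 0 (0.23 at most with 1 library left out, GOF 2). Tbx18 turned to -0.092 without GOF 2 (0.21 at most with 1 left out, GOF 0) and -0.076 without both cultures of animal A. None of these 3 was called in any alternative. The Prrx1/Prrx2 ratio turned to 0.03 without Control 2 and 0.18 without GOF 2, with a low of -0.23 without GOF 0. The Tbx15/Tbx18 ratio turned to -0.017 without GOF 0, -0.011 without GOF 1 and -0.023 within animals, with a high of 0.47 without GOF 2. The Msx2/Msx1 ratio was 1.09 with log2 ratios of (FPKM + 1), where low values are compressed by construction. The cause of the other changes was not tested.

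The replicate block by label number called 1695 genes against 3281 without it, and 2 factors under either, and the same-numbered cultures shared only a number. The block by animal called 3303 genes. It changed no call at an adjusted p under 0.05 among the factors. An estimated correlation between cultures of one animal, chosen after seeing the data, added Prrx2 (adjusted p = 0.0134). Over the other lists 31 genes were called, and 21 to 42 over the alternatives. The share of all tested genes called was 21.2%, and 11% to 33.2% over the alternatives. Foxd1 had 0 to 7 fragments per library and was not tested. Msx1 had 36 to 61 fragments per library and a standard error of 0.30. The part of depth in that error was not tested.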
